A study of Mus musculus with 16 samples.

Results

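VE-cadherin+/CD45+ cells of control mice at E11.5, mid-gestation, were compared between the yolk sac and the embryo proper. Of the 16 arrays of the series 4 hold these cells, 2 from the yolk sac and 2 from the embryo, and they were chosen by the tissue, the CD45 gate and the control genotype in the sample titles. VE-cadherin is the junction protein of endothelial cells encoded by Cdh5, and CD45 is the surface phosphatase of leukocytes encoded by Ptprc. The control CD45+ groups are set beside 2 other pairs of groups, again with 2 arrays each: control VE-cadherin+/CD45− cells of yolk sac and embryo, and CD45+ cells of both tissues from Tie-2-Etv2 animals. In Tie-2-Etv2 animals an Etv2 transgene is switched on by Cre recombinase under Tie-2, the gene of a receptor of endothelial and some blood cells. Etv2 is a transcription factor of early blood and vessel development. All animals were of mixed strain background, and the labels do not give the alleles that the controls carry. The labels do not say whether the 2 arrays of a group came from separate litters or animals, so every p-value here measures only how these arrays vary, and that variation may be technical. All yolk sac arrays lay on 1 slide and all embryo arrays on another, so tissue and slide cannot be told apart in any difference between yolk sac and embryo.

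The yolk sac makes the first blood cells of the mouse, and its erythro-myeloid progenitors give rise to macrophages that travel to the embryo and settle in tissues, among them the microglia of the brain. Its blood islands lie between mesothelium and a visceral endoderm that takes up nutrients and secretes plasma proteins such as alpha-fetoprotein and the apolipoproteins before the liver does. The embryo proper at this stage has a fetal liver, a growing neural tube and macrophages in its tissues.

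Each gene was read by a probe of 60 bases, and the first 30 bases of 5 probes are shown because these genes lead the account that follows. Among the genes named here S100g and Spp2 had the 2 largest differences towards the yolk sac and Zic1 the largest towards the embryo. H2-Ab1 was the called gene of the antigen presentation list and Tmem119 that of the microglia list. Tmem119 was, however, as bright in CD45− as in CD45+ control cells. Probe positions are on mm9, as in the files.
S100g, chrX:159399938-159399997, minus strand: gctgtgcgattatgatacatactgttaata
Spp2, chr1:90322944-90323003, plus strand: gagaatggtgtctttttcctttttataatc
Zic1, chr9:91255425-91255484, minus strand: atccgcatgtaaagggtctggtttattcat
H2-Ab1, chr17:34406296-34406355, plus strand: tagtaaaccaatgtatgcttatccccacct
Tmem119, chr5:114243962-114244021, minus strand: cagaactcttctctgtcagtccacgaagta

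The sorted cells carried the transcripts of leukocytes and macrophages at levels that the test did not separate between the tissues. Levels are log2 processed intensities relative to the 75th percentile of the array, so a level of 0 is the brightness at that percentile. Ptprc measured 3.28 and 3.41 on the yolk sac arrays, against 3.56 and 2.88 on the embryo arrays. None of the 4 control CD45− arrays read it well above background. Cdh5 measured −0.44 and −0.08 in yolk sac CD45+ cells and 0.33 and −0.66 in embryo CD45+ cells, and was 5.98 below its level in CD45− cells (SE 0.21). The endothelial marker that the sort used was thus far dimmer in CD45+ cells than in CD45− cells of both tissues.

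Whole lists of markers gave the same picture of the gate. The mean level of 25 pan-leukocyte genes was 4.90 and 4.69 on the yolk sac arrays, against 5.00 and 4.72 on the embryo arrays, and lay between −1.59 and −1.31 on the 4 control CD45− arrays. For 25 core macrophage genes it was 4.88 and 4.64 on the yolk sac arrays, against 4.99 and 4.83 on the embryo arrays. The mean of 28 endothelial genes was −1.01 and −0.52 in yolk sac CD45+ cells and −0.71 and −0.86 in embryo CD45+ cells, while it was 5.03 or more on the control CD45− arrays. Markers of cells that the gate should leave out were also measured, and they differed between the tissues and between replicates. Across 30 endoderm and hepatic genes the mean was 2.49 and 0.73 on the yolk sac arrays, against −1.99 and −2.13 on the embryo arrays, so yolk sac replicate 1 stood above replicate 2. Across 20 neural genes it was −3.84 and −3.95 on the yolk sac arrays, against −2.05 and −0.46 on the embryo arrays, so embryo replicate 2 stood above replicate 1.

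**Figure D1:**
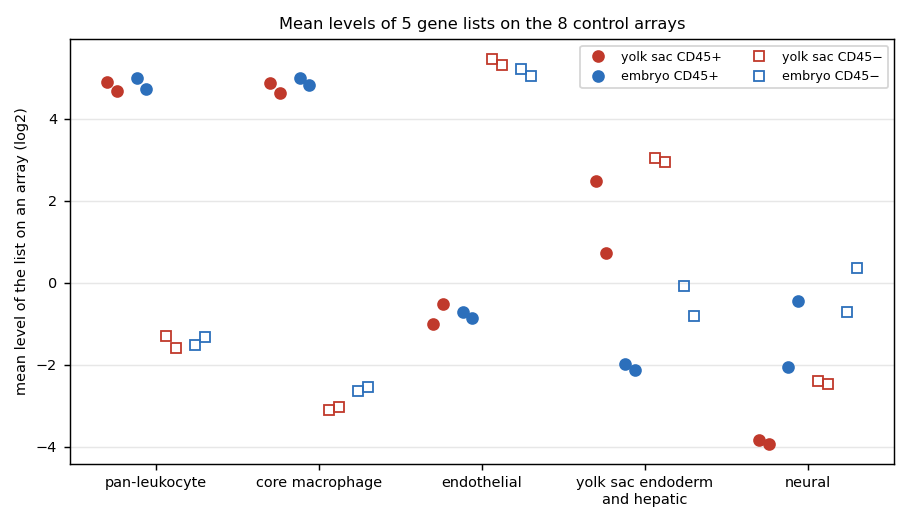
Mean level of the genes of 5 marker lists on each control array, as log2 intensity relative to the 75th percentile of the array, with yolk sac arrays to the left of embryo arrays and each point 1 array. Leukocyte and macrophage means lie close together in CD45+ cells of both tissues, endoderm and hepatic genes are higher on the yolk sac arrays, and neural genes are higher on the embryo arrays.

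A test over 24576 genes with limma, adjusted by Benjamini-Hochberg, called 421 genes between yolk sac and embryo CD45+ cells at a threshold of 0.05, or 1.71% of the genes tested. Of these 152 (0.618%) were higher in the yolk sac, with a median difference of 2.86, and 269 (1.09%) were lower, with a median of −2.07. The arrays of the tissues did not overlap for any of the 421 genes, and over all genes tested they did not overlap for 14.7% that were higher and 17.1% that were lower. In 74 of the 152 higher genes only yolk sac arrays were well above background, and in 121 of the 269 lower genes only embryo arrays were. A further 7 higher and 4 lower genes were well above background on no array of either tissue. The median difference over all genes was −0.02, and 3261 genes had an unadjusted p under 0.05. The spread was pooled over all 8 groups of the series: with the 4 arrays alone limma called 0 genes (1721 had an unadjusted p under 0.05), and with the 8 control arrays it called 70 higher and 50 lower genes. The higher count was 113 without yolk sac replicate 1, 469 without yolk sac replicate 2, 83 without embryo replicate 1 and 129 without embryo replicate 2. The lower count was 160, 407, 378 and 422 without the same arrays in that order.

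Secreted plasma proteins and proteins of absorbing cells were among the genes with the largest differences towards the yolk sac, and 4 of the top 15 stood on the list of yolk sac endoderm and hepatic genes (Apoa4, Spink1, Apoa1 and Ttr). S100g encodes the vitamin D-regulated calcium-binding protein calbindin-D9k. It measured 4.16 and 2.10 on the yolk sac arrays, against −6.49 and −6.91 on the embryo arrays. Both yolk sac arrays were far above both embryo arrays, on which the probe was not well above background. S100g was therefore at least 204-fold higher in the yolk sac (adjusted p = 0.00268), where the bound sets the yolk sac mean against, on each embryo array, the higher of the gene's own signal and the dimmest signal still well above background. Fewer cells of a type and less RNA per cell cannot be told apart in such bulk samples.

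Spp2, a secreted phosphoprotein of liver and bone, measured 3.43 and 1.31 in the yolk sac and −5.11 and −6.00 in the embryo, a rise of at least 121-fold (adjusted p = 0.00559). Apoa4, an apolipoprotein of dietary lipid transport, measured 2.29 and −0.02 in the yolk sac and −6.31 and −6.22 in the embryo, and was at least 51.2-fold higher (adjusted p = 0.00663). Apoa1, the main protein of high-density lipoprotein, measured 3.10 and 0.85 in the yolk sac, against −4.42 and −4.97 in the embryo, and was at least 91.7-fold higher (adjusted p = 0.0137). For all 3 genes replicate 1 of the yolk sac was the brighter array, by about 2 log2 units, and none was above background in the embryo. Kng1, a kininogen of the kinin and clotting system, was seen on every array, with 4.08 and 1.60 in the yolk sac and −3.68 and −3.68 in the embryo, a 91.6-fold rise (adjusted p = 0.0145). Ttr, the carrier of thyroid hormone and retinol-binding protein, measured 5.03 and 2.83 in the yolk sac and −1.93 and −2.67 in the embryo, a difference of 6.23 (adjusted p = 0.0197).

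A further 9 genes made up the 15 with the largest rises. They were the pancreatic trypsin inhibitor Spink1 (at least 143-fold), the vitamin D-binding protein gene Gc (at least 32.7-fold), the kininogen Kng2 (at least 21.6-fold), the lectin Mbl2 (at least 14.6-fold) and the cystine transporter subunit Slc7a9 (at least 19.4-fold). The scaffold of brush border transporters Pdzk1 (at least 55.0-fold), the monooxygenase Fmo1 (at least 16.2-fold), Smlr1 (at least 13.7-fold) and the X-linked tumour antigen gene Trap1a (at least 12.7-fold) completed them. Each bound holds for the brightest probe of the gene. A second probe of Gc was seen above background in the embryo. It gave a smaller difference of 4.21 in the same direction that was not called (adjusted p = 0.0669). Second probes of Fmo1, Kng1 and Pdzk1 were likewise positive without a call (adjusted p = 0.0510, 0.0580 and 0.0839). S100g, Spp2, Apoa4, Gc, Trap1a and Fmo1 were called without each of the 4 arrays in turn. The other 9 genes lost the call without yolk sac replicate 1, at adjusted p-values from 0.0533 for Spink1 to 0.152 for Mbl2. Without embryo replicate 2 the call was also lost for Ttr (0.0579), Pdzk1 (0.0573), Kng2 (0.0611), Smlr1 (0.0738) and Mbl2 (0.0826), and without embryo replicate 1 for Smlr1 (0.0712) and Mbl2 (0.0829).

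**Figure D2:**
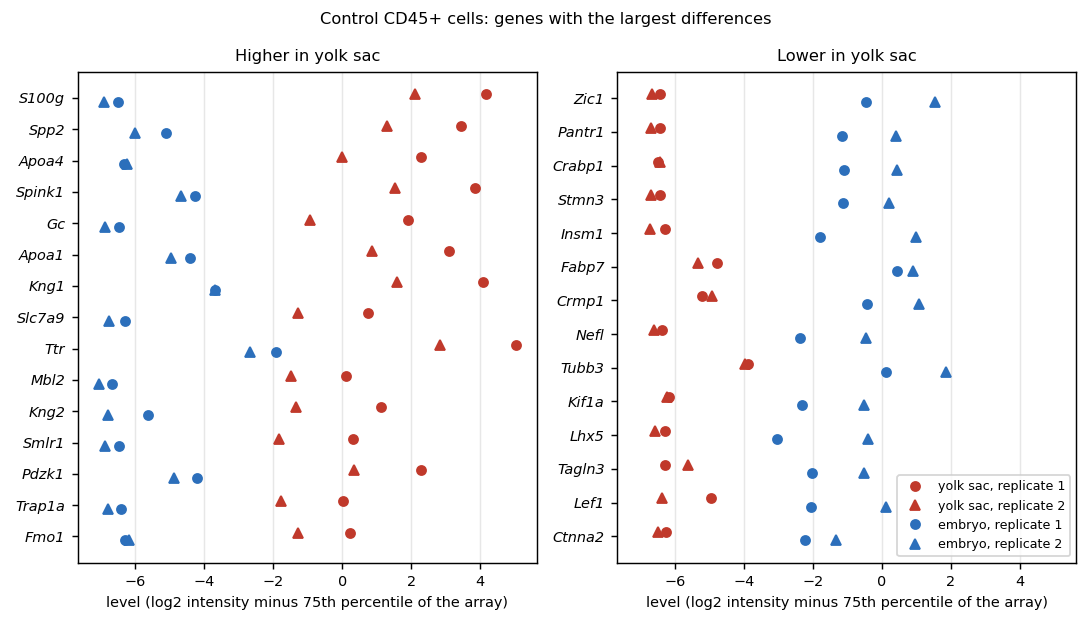
Level of the 15 genes with the largest called rise in the yolk sac (left panel) and of 14 of the 15 with the largest called fall (right panel), as log2 intensity relative to the 75th percentile of the array. Each point is 1 control CD45+ array, yolk sac and embryo in separate colours. The arrays of the tissues do not overlap for the genes shown, as the rule that chose them required.

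Of the yolk sac endoderm and hepatic genes, 11 of 30 were higher in the yolk sac and 0 were lower, against a background of 0.618% called higher. Their median difference was 3.96 (3.79 with bounds in place of fitted values), against −0.02 over all genes. Like the other lists here, this one was chosen with earlier results of these data known. Its count beside the background is thus a description and not a test. All 30 differences were positive and 27 did not overlap between the tissues, against 14.7% of all genes tested not overlapping in that direction. Afp, alpha-fetoprotein, was the brightest example, with 8.88 and 7.20 on the yolk sac arrays, against 2.77 and 2.76 on the embryo arrays. That is a difference of 5.28 ± 0.85 (SE), or 38.8-fold, with an adjusted p of 0.0165. Cubn, the cubilin receptor that takes up vitamin-bound and lipoprotein ligands, was 45.3-fold higher (adjusted p = 0.0362), and Apob, the core protein of very low-density lipoprotein, was 32.7-fold higher (adjusted p = 0.0406). Without yolk sac replicate 1 the adjusted p was 0.0775 for Afp, 0.167 for Cubn and 0.196 for Apob, and Cubn and Apob were also lost without embryo replicate 1 (0.0862 and 0.124) and embryo replicate 2 (0.0916 and 0.0840). The count of called members moved with the array left out: without yolk sac replicate 1 it was 1 of 30, without yolk sac replicate 2 it was 15, without embryo replicate 1 it was 6 and without embryo replicate 2 it was 4. It was 3 of 30 with normexp background correction, 3 of 22 with the strict filter, which keeps probes well above background in both tissues, 6 when dim probes were not filtered, 7 with the mean of probes, 17 with a trended prior and 0 with the 4 arrays alone. In CD45− cells, where the same list had mean levels of 3.05 and 2.95 in the yolk sac and −0.08 and −0.81 in the embryo, 17 of 30 were called higher in the yolk sac, against 5.46% of all genes tested there. The part that cells of the endoderm have in the CD45+ difference was not tested.

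Of 14 epithelial genes 0 were called in either direction. Their differences were positive in 13 and the arrays did not overlap in 9, against 14.7% of all genes tested not overlapping in that direction, and the median was 2.07. The keratin gene Krt8 measured 4.37 and 2.15 in the yolk sac and 1.79 and −0.25 in the embryo (difference 2.48, 95% interval 0.44 to 4.53, adjusted p = 0.264). Without yolk sac replicate 2 there were 2 epithelial genes called higher and the median was 3.19, whereas without yolk sac replicate 1 there were 0 and the median was 0.95. In CD45− cells 8 of the 14 were called higher, against 5.46% of all genes tested there, with a median of 3.02.

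The promoters of 2 genes higher in the yolk sac hold letters of the site bound by hepatocyte nuclear factor 1, a regulator of liver and endoderm genes, and that of Oas3 holds an interferon-stimulated response element. They are shown because these genes were called and the motifs were found by search of both strands, and the capitals mark the match. Sequences are from RefSeq on GRCm38.p6, the 250 bases before the gene's start: Gc on chr5:89457899-89458148, Afp on chr5:90490464-90490713 and Oas3 on chr5:120777660-120777909.
Gc, minus strand: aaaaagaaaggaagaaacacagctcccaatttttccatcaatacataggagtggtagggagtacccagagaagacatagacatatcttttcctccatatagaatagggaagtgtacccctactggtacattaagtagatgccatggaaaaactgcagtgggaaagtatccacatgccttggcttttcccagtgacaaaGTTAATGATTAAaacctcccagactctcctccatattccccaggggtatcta
Afp, plus strand: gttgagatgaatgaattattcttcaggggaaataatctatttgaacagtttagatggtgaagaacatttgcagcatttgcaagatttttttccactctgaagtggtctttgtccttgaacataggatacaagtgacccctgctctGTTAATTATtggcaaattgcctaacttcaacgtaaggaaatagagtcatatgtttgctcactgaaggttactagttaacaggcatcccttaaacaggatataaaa
Oas3, minus strand: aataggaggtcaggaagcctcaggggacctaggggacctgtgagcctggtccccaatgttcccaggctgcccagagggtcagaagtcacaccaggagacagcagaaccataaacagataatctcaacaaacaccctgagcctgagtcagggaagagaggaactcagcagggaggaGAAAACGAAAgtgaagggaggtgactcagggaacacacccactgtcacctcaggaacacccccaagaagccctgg

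The palindrome searched in Gc, GTTAAT and ATTAA with 1 free base between them, stands at −52 to −41 from the gene's start and in 20 of 27025 promoters (0.074%). The shorter form in Afp, GTTAATNAT, which also lies within every match of the palindrome, stands at −105 to −97 and in 0.866% of promoters. The element in Oas3, GAAA repeated after 2 free bases, stands at −75 to −66 and in 3.46% of promoters. Among 87 called higher genes with a promoter sequence, the palindrome was in 1, the shorter form in 2 and the element of Oas3 in 6. Among 133 called lower genes with one, they were in 0, 1 and 4.

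Neural genes were lower in the yolk sac, and 4 of the 15 genes with the largest falls stood on the neural list (Fabp7, Crmp1, Nefl and Tubb3). Zic1, a zinc finger factor of the dorsal neural tube, measured −6.42 and −6.67 in the yolk sac and −0.47 and 1.54 in the embryo. Its brightest probe was not well above background in the yolk sac, and by that probe Zic1 was at least 29.9-fold lower there (adjusted p = 0.00266). A second probe of Zic1 was seen above background in the yolk sac, differed by −0.77 and was not called (adjusted p = 0.310). Fabp7, the fatty acid-binding protein of radial glia, measured −4.77 and −5.32 in the yolk sac, against 0.43 and 0.92 in the embryo. It had the smallest adjusted p of the 15 genes with the largest falls (0.00166) and was at least 32.9-fold lower in the yolk sac. Tubb3, the tubulin of neurons, was above background on every array, with −3.89 and −3.96 in the yolk sac and 0.13 and 1.86 in the embryo. That is a difference of −4.92 ± 0.71 (SE), 30.2-fold lower in the yolk sac (adjusted p = 0.0105).

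The others described here were the noncoding RNA Pantr1 (at least 16.1-fold lower), the retinoic acid-binding protein gene Crabp1 (at least 16.5-fold), the stathmin Stmn3 (at least 15.1-fold), the factor of newborn neurons Insm1 (at least 15.5-fold) and Crmp1, a mediator of axon guidance (at least 25.9-fold). The neurofilament gene Nefl was at least 7.79-fold lower in the yolk sac and Lef1, a factor of Wnt signalling in many tissues, at least 10.5-fold lower. Kif1a, a motor of synaptic vesicles, Lhx5, a factor of the forebrain, the neuronal Tagln3 and the catenin Ctnna2 were also lower. Embryo replicate 2 was brighter than replicate 1 for Zic1, Fabp7, Tubb3, Crmp1, Nefl, Lef1, Insm1 and Lhx5. Lhx5 lost the call without yolk sac replicate 1 (0.115), yolk sac replicate 2 (0.0743) and embryo replicate 2 (0.106), and the other 13 genes described were called without each array in turn.

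Of 20 neural genes on the list 7 were lower in the yolk sac and 0 higher, against a background of 1.09% called lower, with a median difference of −2.87 (−1.53 with bounds). In 11 of the 20 only embryo arrays were well above background. Besides Fabp7, Crmp1, Nefl and Tubb3, the neurofilament gene Nefm (at least 5.11-fold) and the microtubule protein gene Map2 (at least 2.95-fold, lost without yolk sac replicate 1 at 0.0574) were lower, though a second Map2 probe was not called (adjusted p = 0.128). Sox2, a factor of neural progenitors, was seen on 1 embryo array and on neither yolk sac array (difference −3.11, adjusted p = 0.0754), and Nes, an intermediate filament of progenitors and vessels, differed by −0.98 (adjusted p = 0.0730). The count of lower genes was 6 without yolk sac replicate 1, 7 without yolk sac replicate 2, 12 without embryo replicate 1 and 7 without embryo replicate 2. It was 4 of 20 with normexp (median −0.90), 1 of 8 with the strict filter (median −0.89), 3 with the 8 control arrays and 0 with the 4 arrays alone. In CD45− cells 9 of the 20 were lower in the yolk sac, against 6.08% of all genes tested there, with mean levels of −2.41 and −2.47 in the yolk sac and −0.72 and 0.35 in the embryo. The part of neural cells in the CD45+ difference was not tested.

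**Figure D3:**
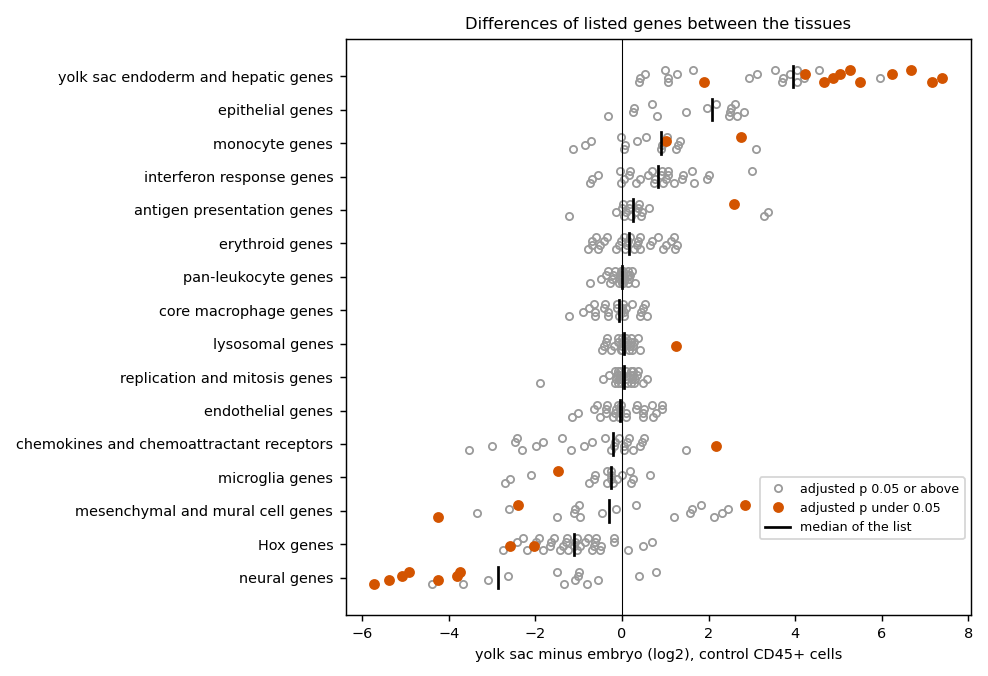
Yolk sac minus embryo difference in control CD45+ cells, on the log2 scale, for each tested gene of a selection of the marker and function lists. Called genes are marked and each list's median is drawn, and the other lists are not shown. Endoderm and hepatic genes lie to the right of 0 and neural genes mostly to the left, while leukocyte, macrophage and cell cycle genes centre near 0.

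The leukocyte and macrophage programmes themselves showed few called differences. For the counts of these and all lists below, the shares over all genes tested are 0.618% called higher and 1.09% called lower. Of 25 pan-leukocyte genes 0 were called in either direction, with a median of −0.01 and differences from −0.75 to 0.30, and 20 of the 25 had a 95% interval that lay within a 2-fold change both ways. The median SE over that list was 0.25. The actin-binding Coro1a measured 7.54 and 7.18 in the yolk sac and 7.51 and 7.24 in the embryo (difference −0.01, 95% interval −0.53 to 0.51). Of 25 core macrophage genes 0 were called as well, with a median of −0.08, and 7 intervals lay within 2-fold. Csf1r, the receptor that macrophages need for survival, measured 9.30 and 8.97 in the yolk sac, against 9.10 and 8.99 in the embryo (difference 0.08, 95% interval −0.49 to 0.66). Adgre1, a surface receptor used to mark mouse macrophages, measured 5.90 and 5.54 in the yolk sac and 5.59 and 5.39 in the embryo (difference 0.23, 95% interval −0.35 to 0.81). C1qa of the complement system differed by −0.32 (95% interval −1.17 to 0.54) and the engulfment receptor gene Mertk by −0.11 (95% interval −1.21 to 1.00).

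Scavenger and resident macrophage receptors, 18 in number, held 1 lower and 0 higher gene, and their median was 0.19. The mannose receptor gene Mrc1 measured 8.19 and 8.10 in the yolk sac and 7.79 and 7.74 in the embryo (difference 0.38, adjusted p = 0.828), and the hyaluronan receptor gene Lyve1 differed by 0.31 (adjusted p = 0.876). Cd163, the haemoglobin scavenger receptor, measured −2.61 and −2.62 in the yolk sac and −6.26 and −6.08 in the embryo, where it was not well above background. It was at least 3.81-fold higher in the yolk sac by the bound, without a call (adjusted p = 0.480), and its pooled SE was 1.91. The lower gene was Axl, a receptor for dying cells and a partner of Mertk. It measured 0.94 and 0.82 in the yolk sac and 3.01 and 2.28 in the embryo, a difference of −1.77 ± 0.28 (SE), or 3.41-fold lower (adjusted p = 0.0155), and it was called without each of the 4 arrays in turn. Axl was also the 1 called gene, lower, of 22 complement, Fc receptor and engulfment genes, whose median was 0.46.

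Microglia genes had 1 of 19 members lower in the yolk sac and 0 higher, with a median of −0.26. Of the 19 differences 4 were positive. The arrays did not overlap in 7 that were lower, against 17.1% of all genes tested, and in 1 that was higher, against 14.7%. Tmem119, a membrane protein used as a marker of microglia and also made by osteoblasts, measured 1.47 and 0.50 in the yolk sac and 2.23 and 2.69 in the embryo, and was 2.78-fold lower (difference −1.48 ± 0.31, adjusted p = 0.0435). Tmem119 was as bright in CD45− as in CD45+ control cells (difference −0.02, SE 0.22). The purinergic receptor gene P2ry12 measured 2.62 and 2.25 in the yolk sac and 3.00 and 3.17 in the embryo (difference −0.65, 95% interval −1.37 to 0.08, adjusted p = 0.444). The count of lower microglia genes was 2 without yolk sac replicate 1, 0 without yolk sac replicate 2, 1 without embryo replicate 1 and 0 without embryo replicate 2. Tmem119 lost its call without yolk sac replicate 2 (0.0962), embryo replicate 1 (0.0587) and embryo replicate 2 (0.127).

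Antigen presentation genes gave 1 higher gene of 18, with a median of 0.26. H2-Ab1, the beta chain of a class II molecule, measured 2.89 and 3.11 in the yolk sac, against 0.55 and 0.27 in the embryo. Both yolk sac arrays were above both embryo arrays and the tissues differed by 2.59 ± 0.42 (SE), or 6.03-fold (adjusted p = 0.0176). A second probe of H2-Ab1 differed by 2.68. H2-Eb1, a beta chain of another class II molecule, measured 2.28 and 2.63 in the yolk sac and −0.62 and −1.21 in the embryo (difference 3.37, adjusted p = 0.0557), and H2-Aa, the partner of H2-Ab1, differed by 3.27 (adjusted p = 0.135). Cd74, the invariant chain that escorts class II molecules, measured 2.06 and 2.54 in the yolk sac and 2.19 and 1.14 in the embryo and overlapped (difference 0.63, 95% interval −0.79 to 2.05). The call of H2-Ab1 was lost without yolk sac replicate 1 (0.0545) and without embryo replicate 2 (0.0523).

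Monocyte genes had 2 of 17 members higher in the yolk sac and 0 lower, against 0.618% of all genes called higher, with a median of 0.91. That count was 1 without yolk sac replicate 2, 0 without any other of the 4 arrays, 0 when dim probes were not filtered and 1 with the mean of probes, where the median was 0.52. Ly6c1 measured 0.88 and 1.88 in the yolk sac and −1.16 and −1.58 in the embryo, a 6.70-fold rise (adjusted p = 0.0366) that was lost without any 1 of the 4 arrays (0.0527 to 0.100). A second Ly6c1 probe was not called (adjusted p = 0.0795). Ly6c1 has near-identical neighbours that its probe may also read, and it was 1.36 lower in CD45+ than in CD45− control cells. Fn1, the matrix protein fibronectin that monocytes and many other cells make, was 2.01-fold higher in the yolk sac (difference 1.01 ± 0.18, adjusted p = 0.0272) and was likewise lower in CD45+ than in CD45− cells, by 3.94. Fn1 lost its call without yolk sac replicate 1 (0.0924), embryo replicate 1 (0.0700) and embryo replicate 2 (0.0618). Ccr2, the chemokine receptor of blood monocytes, measured −1.78 and −2.09 in the yolk sac and −2.19 and −1.77 in the embryo (difference 0.04, 95% interval −1.13 to 1.21).

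Of 28 interferon response genes 0 were called, with 23 positive differences and a median of 0.83. The arrays did not overlap in 10 that were higher and 0 that were lower, against 14.7% and 17.1% of all genes tested. In control CD45− cells 12 of the 28 were called higher in the yolk sac (median 1.97), against 5.46% of all genes tested there. Replicates lay apart in both tissues, with mean levels of the list of 3.3 and 1.8 in the yolk sac and 2.6 and 1.0 in the embryo. Ifit1 measured 1.29 and −0.87 in the yolk sac and 4.06 and −2.27 in the embryo (difference −0.68, 95% interval −4.05 to 2.69). Isg15 measured 6.08 and 4.22 in the yolk sac and 7.19 and 3.01 in the embryo, with a difference of 0.05 (95% interval −2.26 to 2.36). Without yolk sac replicate 2 there were 8 of the 28 called higher (median 1.58), whereas without embryo replicate 2 there were 0 called higher and 1 lower (median 0.25), and without yolk sac replicate 1 there were 0 (median 0.21). Oas3 and Oas1c, genes of the 2-5A synthetase family, were called among all genes and are named after their values were seen. Oas3 measured −1.75 and −1.96 in the yolk sac and −5.06 and −4.22 in the embryo, where 1 array was well above background (adjusted p = 0.0278, lost without yolk sac replicate 1 at 0.109 and embryo replicate 1 at 0.107). Oas1c was 2.41-fold higher (adjusted p = 0.0435), lost without yolk sac replicate 1 (0.154), embryo replicate 1 (0.107) and embryo replicate 2 (0.102).

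Chemokines and their receptors held 1 higher and 0 lower gene of 26, with a median of −0.22. Ccl17, a ligand of the chemokine receptor CCR4, was 4.50-fold higher in the yolk sac (adjusted p = 0.0398) and lost the call without any 1 array. Ccl3 and Ccl4, inflammatory chemokines of macrophages, were below their embryo levels on both yolk sac arrays without a call: Ccl4 measured 6.98 and 7.22 in the yolk sac and 9.72 and 8.13 in the embryo (adjusted p = 0.379). Lysosomal genes gave 1 higher and 0 lower genes of 26, with a median of 0.04 and 20 intervals within 2-fold. The higher one, Atp6v0d2, a proton pump subunit of macrophages and osteoclasts, measured −0.35 and −0.51 in the yolk sac and −1.69 and −1.68 in the embryo, a 2.38-fold rise (adjusted p = 0.0366) that was lost without any 1 array (0.0518 to 0.145). A second Atp6v0d2 probe differed by 0.71 and was not called (adjusted p = 0.532).

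Of 26 lipid and cholesterol genes 2 were lower and 0 higher, with a median of −0.11. They were Fabp7 and Abcg1, a cholesterol exporter, which measured 1.47 and 1.86 in the yolk sac and 3.25 and 3.15 in the embryo, 2.90-fold lower (adjusted p = 0.0147, lost without yolk sac replicate 1 at 0.0661). Apoe, the apolipoprotein that macrophages make, measured 9.78 and 9.20 in the yolk sac and 9.62 and 9.36 in the embryo (difference 0.00, 95% interval −0.56 to 0.56). Among 29 secreted growth factors, proteases and matrix genes, Fn1 was the 1 higher gene and Mmp2, a gelatinase, the 1 lower gene. Mmp2 measured −1.54 and −1.94 in the yolk sac and −0.24 and 0.18 in the embryo, 3.28-fold lower (adjusted p = 0.00559), and was called without each array in turn. Of 26 cytokine receptors of blood cells 1 was called, the TGF-beta receptor gene Tgfbr1, which was 2.70-fold lower (adjusted p = 0.0165, lost without yolk sac replicate 1 at 0.0693 and embryo replicate 1 at 0.0538). A second Tgfbr1 probe differed by −0.71 and was not called (adjusted p = 0.558).

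A further set was named after the values were seen: called genes with a higher level in CD45+ than in CD45− control cells, taken as a description of which calls fall on transcripts of the CD45+ gate. Of the 152 higher genes 30 were of this kind and 66 had a lower level in CD45+ cells, and of the 269 lower genes these counts were 43 and 124. Over all genes tested 1.05% of the 6984 genes higher in CD45+ cells were called between the tissues, and 3.66% of the 5192 genes lower in CD45+ cells. Sirpb1b, a signal regulatory receptor, measured −1.87 and −0.70 in the yolk sac, against −5.14 and −5.66 in the embryo, at least 9.57-fold higher (adjusted p = 0.0178, lost without embryo replicate 2 at 0.0538). Klra2, a lectin receptor of the Ly49 family, measured −0.06 and −3.98 in the yolk sac and −6.34 and −6.76 in the embryo, at least 5.76-fold higher (adjusted p = 0.0381), and yolk sac replicate 2 was far below replicate 1. Klra2 lost the call without embryo replicate 1 (0.0895) and embryo replicate 2 (0.0975). Both belong to families of near-identical genes, so what their probes read is uncertain.

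Among the lower genes of that set, Pilra, an inhibitory receptor of myeloid cells, measured 0.89 and 0.67 in the yolk sac and 2.51 and 2.10 in the embryo, and was 2.88-fold lower (adjusted p = 0.0072), while its other probes differed by −1.50 and −1.33 without a call (adjusted p = 0.126 and 0.351). The metalloprotease gene Amz1 was also 2.88-fold lower (adjusted p = 0.0102), with 0.65 and 0.95 in the yolk sac and 2.28 and 2.37 in the embryo. Gal3st4, a sulfotransferase of glycans, measured −3.84 and −5.10 in the yolk sac, where 1 array was well above background, and −1.13 and −1.06 in the embryo (difference −3.38 ± 0.42, adjusted p = 0.00559). Pilra, Amz1 and Gal3st4 were called without each of the 4 arrays in turn. Capn3, a calcium-activated protease, measured −0.17 and −0.22 in the yolk sac and 1.68 and 1.95 in the embryo, 4.03-fold lower (adjusted p = 0.0152, lost without yolk sac replicate 1 at 0.0527). Ptgs1, the prostaglandin synthase COX-1, measured 4.02 and 4.03 in the yolk sac and 5.17 and 4.91 in the embryo, 2.02-fold lower (adjusted p = 0.0375), and kept the call only without embryo replicate 2 of the 4 arrays, with adjusted p-values of 0.0648 to 0.134 otherwise.

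**Figure D4:**
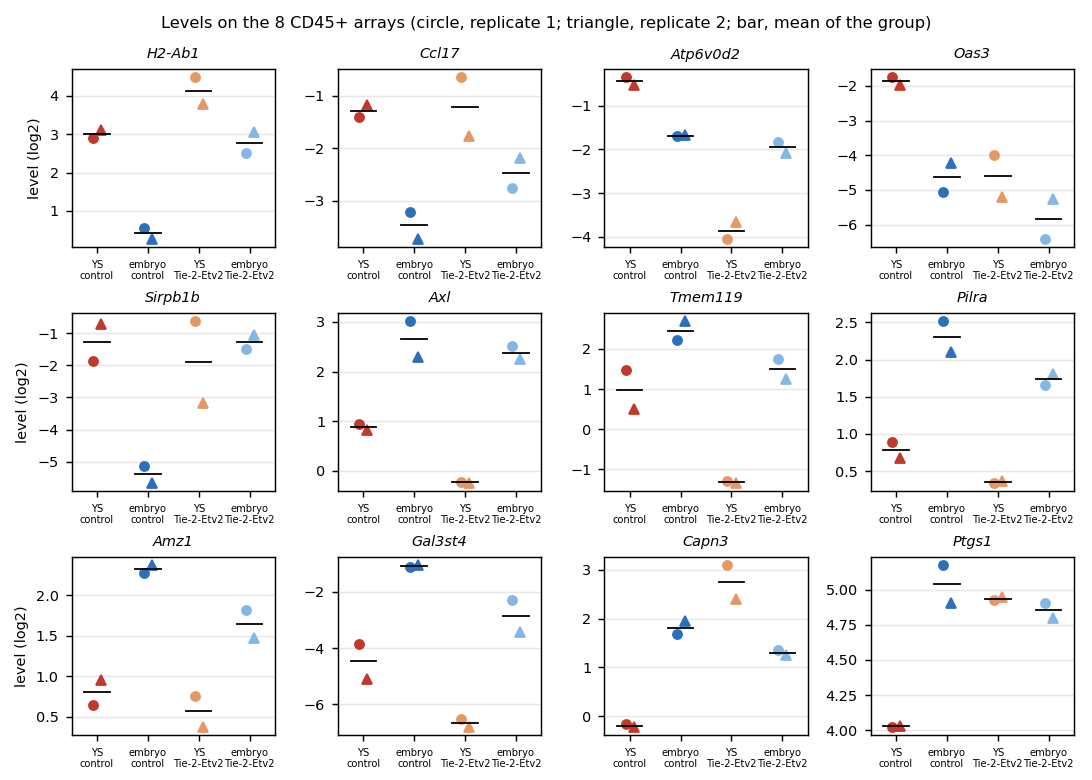
Level of 12 genes called between the tissues in control CD45+ cells, all but Tmem119 higher in CD45+ than in CD45− control cells, as log2 intensity relative to the 75th percentile of the array. Each point is 1 of the 8 CD45+ arrays, control groups left of Tie-2-Etv2 groups, and bars are group means of 2 arrays. The control arrays of the tissues do not overlap for any of them, and H2-Ab1 has the yolk sac arrays at 2.89 and 3.11 above the embryo arrays at 0.55 and 0.27.

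Mesenchymal genes moved in both directions: 1 of 20 was higher in the yolk sac and 2 were lower, with a median of −0.30. Col1a1, a chain of type I collagen, measured 3.83 and 2.70 in the yolk sac and −0.35 and 1.20 in the embryo, a 7.17-fold rise (adjusted p = 0.0406) that was lost without yolk sac replicate 1 (0.197) and without embryo replicate 1 (0.163). Twist1 and Prrx1, factors of head and limb mesenchyme, were lower, Twist1 by 5.27-fold (adjusted p = 0.0431) and Prrx1 by at least 5.30-fold (adjusted p = 0.0304), with a second Prrx1 probe not called (adjusted p = 0.0944). Twist1 lost the call without yolk sac replicate 2 (0.115) and embryo replicate 2 (0.131), and Prrx1 kept it only without embryo replicate 1 (0.0711 to 0.0809 without the others). Of 12 muscle genes the cardiac actin gene Actc1 was lower, at −2.68 and −3.61 in the yolk sac against −0.56 and 0.63 in the embryo (adjusted p = 0.0380), and kept the call only without embryo replicate 1 (0.0685 to 0.116 without the others).

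Hox genes, which lay out position along the body axis, had 2 of 35 members lower in the yolk sac and 0 higher, with a median of −1.12. Over all genes tested 1.09% were called lower. In 13 of the 35 only embryo arrays were well above background. With normexp 0 were called (median −0.22). The count was also 0 with the strict filter, which tested 9 (median −0.63), and when dim probes were not filtered (median −1.06). Hoxa2 was at least 2.12-fold lower and Hoxa3 4.11-fold lower (adjusted p = 0.0426 and 0.0362), and both kept the call only without embryo replicate 1 (0.0860 to 0.106 for Hoxa2 and 0.0618 to 0.109 for Hoxa3 without the others). Of 18 lymphoid genes 2 were lower, Lef1 and the B cell factor gene Ebf1, which was at least 2.49-fold lower (adjusted p = 0.0213, lost without yolk sac replicate 1 at 0.0744). Of 21 imprinted genes 1 was higher: H19, a noncoding RNA expressed from the maternal allele, measured 7.87 and 6.98 in the yolk sac and 5.80 and 5.83 in the embryo. Of the other H19 probes 5 were also called higher and 1 differed by −0.49 (adjusted p = 0.749). H19 was 3.05-fold higher (adjusted p = 0.0366), lost without yolk sac replicate 1 (0.157), embryo replicate 1 (0.102) and embryo replicate 2 (0.0799).

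The lists of 14 other gene groups had 0 called genes in either direction. Their medians were 0.16 for 30 erythroid genes, −0.37 for 23 megakaryocyte and platelet genes, −0.81 for 20 neutrophil genes, 0.01 for 11 mast cell genes, −0.04 for 28 endothelial genes and −0.14 for 24 erythro-myeloid and stem cell progenitor genes. They were −0.09 for 22 macrophage tissue identity factors, −0.44 for 26 inflammatory cytokine and pattern receptor genes, 0.32 for 19 iron and heme recycling genes and −0.08 for 26 integrins and tetraspanins. They were 0.09 for 20 dissociation stress genes, −0.02 for 28 hypoxia and glycolysis genes, 0.06 for 30 replication and mitosis genes and −0.07 for 4 sex-linked genes. The yolk sac replicates stood apart for neutrophil genes, with mean levels of −1.18 and 1.06 in the yolk sac and 0.24 and 0.92 in the embryo. Without yolk sac replicate 1 the neutrophil median was 0.22 and the megakaryocyte median 0.44, with 1 megakaryocyte gene called higher, and without yolk sac replicate 2 they were −1.87 with 3 called lower and −0.74 with 2 called lower. Of the replication and mitosis genes 27 of 30 had an interval within 2-fold. The embryonic globin gene Hbb-bh1 measured 7.97 and 7.20 in the yolk sac and 5.52 and 7.38 in the embryo (difference 1.14, 95% interval −0.71 to 2.98), and Myb, a factor of definitive progenitors, measured 0.79 and 1.92 in the yolk sac and 0.84 and 1.82 in the embryo (difference 0.02, 95% interval −0.88 to 0.93).

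Control CD45− cells, in which the endothelial list was bright, were compared between the same tissues and slides to see which differences appear in both gates. There 1341 genes (5.46%) were called higher and 1495 (6.08%) lower in the yolk sac. Of the 152 genes higher in yolk sac CD45+ cells 76 were also higher in CD45− cells, which is 5.67% of the 1341. Of the 269 lower genes 151 (56.1%) were also lower there, which is 10.1% of the 1495. The test of the difference between the gates called 322 genes of the 24576 (1.31%), 79 with a higher value in CD45+ cells (0.321%) and 243 with a lower one (0.989%), and 10 of the 152 and 32 of the 269 were among them. That count was 784 when the CD45+ and CD45− arrays of the same tissue, genotype and replicate number were treated as a random block. It was 155 without yolk sac CD45− replicate 2, 169 without yolk sac CD45− replicate 1, 489 without yolk sac CD45+ replicate 1 and 500 without embryo CD45+ replicate 2. Afp differed by 5.28 in CD45+ cells and 3.47 in CD45− cells, and Zic1 was called lower in both gates. Neither was called for the difference between gates (adjusted p = 0.683 for Afp and 0.317 for Zic1). Mmp2, Tmem119, Plxdc2, Gal3st4 and Crmp1 were called for it, each with a lower value in CD45+ than in CD45− cells. Tmem119 differed by −1.48 in CD45+ cells and by 1.11 in CD45− cells (difference of differences −2.58, adjusted p = 0.0173). Crmp1 differed by −5.39 in CD45+ cells and −0.98 in CD45− cells (−4.41, adjusted p = 0.0159), where −5.39 and −4.41 are fitted values that rest on yolk sac CD45+ signal not above background, with −4.70 as the bound in CD45+ cells. Mmp2 differed by −1.71 in CD45+ cells and 0.17 in CD45− cells (−1.88, adjusted p = 0.0130). The transmembrane gene Plxdc2, named after its values were seen, differed by −2.30 in CD45+ cells and 0.85 in CD45− cells (−3.15, adjusted p = 0.0272). Plxdc2 was called between the tissues at an adjusted p of 0.0253, which was lost without any 1 of the 4 arrays (0.0595 to 0.0717). H2-Ab1 differed by 2.59 in CD45+ cells and −0.06 in CD45− cells, without a call for the difference (2.65, adjusted p = 0.0740), though it was called with that random block (adjusted p = 0.0139).

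**Figure D5:**
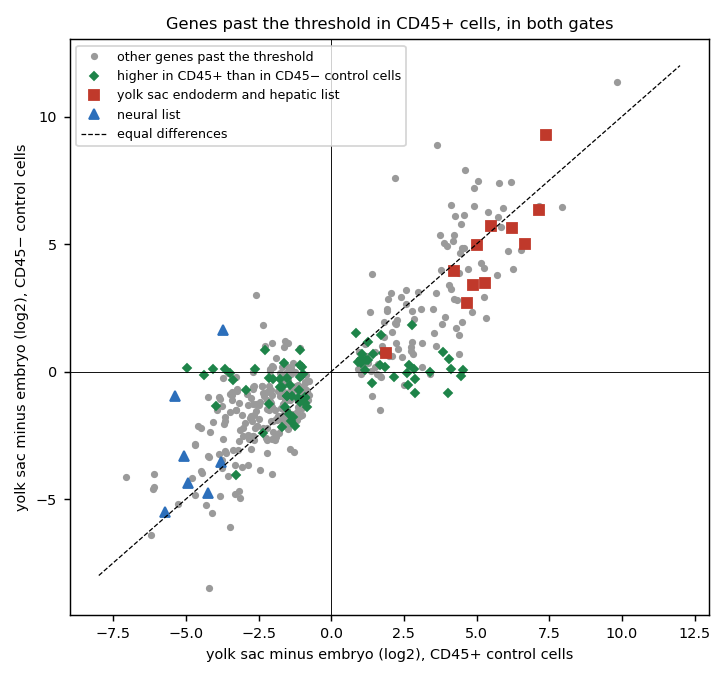
Yolk sac minus embryo difference in control CD45+ cells against the same difference in control CD45− cells, on the log2 scale, for the genes called in CD45+ cells, each point a gene, with list members and genes higher in CD45+ cells in their own symbols and equal differences as a dashed line. The called endoderm and hepatic genes lie above 0 in both gates and 6 of the 7 called neural genes below 0 in both, while Tmem119 lies below 0 in CD45+ cells (−1.48) and above 0 in CD45− cells (1.11).

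In CD45+ cells of Tie-2-Etv2 animals 3084 genes (12.5%) were called between the tissues, 1293 higher (5.26%) and 1791 lower (7.29%) in the yolk sac. Of the 152 higher genes of control cells 64 (42.1%) were also higher there, which is 4.95% of the 1293, and of the 269 lower genes 171 (63.6%) were also lower, which is 9.55% of the 1791. The test of the difference between the genotypes called 769 genes (3.13%), 500 with a higher value in control cells (2.03%) and 269 with a lower one (1.09%), 23 of the 152 and 39 of the 269 among them. Core macrophage genes were a group where the genotypes parted: 0 of 25 were called between the tissues in control cells, with a median of −0.08, while 22 of 25 were lower in the yolk sac in Tie-2-Etv2 cells, with a median of −2.77. For 10 of the 25 the difference between genotypes was itself called, with a higher value in control cells. Markers of other cells moved in the same Tie-2-Etv2 cells, where 10 of 23 megakaryocyte genes (median 1.52), 10 of 28 endothelial genes (median 0.71) and 6 of 24 progenitor genes (median 0.64) were higher in the yolk sac, and their part in the macrophage difference was not tested. Csf1r differed by 0.08 between the tissues in control cells and by −2.39 in Tie-2-Etv2 cells (difference of differences 2.47, adjusted p = 0.0121), and Adgre1 by 0.23 in control cells and −2.88 in Tie-2-Etv2 cells (3.11, adjusted p = 0.00754). Lysosomal genes followed, with 1 higher and 0 lower of 26 in control cells and 21 of 26 lower in Tie-2-Etv2 cells, and 12 called for the difference between the genotypes. Atp6v0d2 differed by 1.25 in control cells and −1.91 in Tie-2-Etv2 cells (3.17, adjusted p = 0.00748), and Capn3 by −2.01 in control cells and 1.44 in Tie-2-Etv2 cells (−3.45, adjusted p = 0.00816). The endoderm and hepatic list had 14 of 30 members called higher and 1 called lower in cells of Tie-2-Etv2 animals, with a median of 2.87, and the neural list 15 of 20 lower, with a median of −3.34. The count of genes called for the difference between genotypes was 0 when the 8 CD45+ arrays were fitted alone (3608 had an unadjusted p under 0.05), and it was 88 and 623 without embryo Tie-2-Etv2 replicates 1 and 2, 118 and 321 without yolk sac Tie-2-Etv2 replicates 1 and 2, and 294 and 1590 without yolk sac control replicates 1 and 2. The count of 3084 was 664 without embryo Tie-2-Etv2 replicate 1, 1005 without yolk sac Tie-2-Etv2 replicate 1 and 1266 without yolk sac Tie-2-Etv2 replicate 2.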

How the data were processed

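Total RNA of sorted cells had been amplified and labelled with Cy3 for 1-colour arrays, per the labels' protocols. The deposited scanner files hold intensities from Agilent Feature Extraction 10.7, per the file headers, already background-subtracted and detrended within each array. Of 62976 spots 59305 were not controls, for 55681 probes, and 87 probes with outlier spots were left out. On the 4 arrays the share of probes well above background was 50.6% to 55.1%, 0 spots were saturated, and replicates correlated at 0.975 and 0.976 across genes, which are not independent. Their number limits the precision: an exact permutation test of 2 against 2 arrays cannot go below 0.3333.

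A level is log2 processed intensity less the 75th percentile of that array. The 34126 probes read well above background by both arrays of some group were kept, and the brightest stood for a gene, with names matched to RefSeq (GRCm38.p6) for 16530 of 24576 genes. limma 3.58.1 (R 4.3.3) fitted the 8 group means over 16 arrays, with degrees of freedom of 8 (residual) and 2.29 (prior), two-sided p-values and adjustment by Benjamini-Hochberg, after tests on simulated data. Python 3.11.15 made the tables. The deposited log2 value table was not used, since it is centred within tissue and gate. One rule named the 15 largest called differences in each direction among genes with a symbol, leaving out predicted genes and clones. It also required no overlap between the tissues and signal well above background on both arrays of the yolk sac or embryo group. From 35 gene lists the first 4 members and up to 6 called ones in each direction were named. Sorting genes such as Cdh5 and Ptprc and the sex-linked list were added, and other genes were named after the values were seen. These rules, the members and the lists were chosen with earlier results of these data known, and 37 of 780 listed genes were not tested. A few genes are not reported here, and they were left out of the lists and the named genes. Alternatives were other scalings, background corrections, filters, probe averages, priors, sets of arrays and a replicate block.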

Additional observations from a re-analysis of the deposited data

Results flagged for a closer look

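Of the 322 genes called for the difference between gates, 5 are among the genes named here. For these the yolk sac minus embryo difference of control CD45+ cells differed from that of control CD45− cells by the test of the difference itself. The CD45+ minus CD45− value was −4.41 for Crmp1, −3.15 for Plxdc2, −3.03 for Gal3st4, −2.58 for Tmem119 and −1.88 for Mmp2, at adjusted p-values of 0.0159, 0.0272, 0.0369, 0.0173 and 0.0130 in the same order. The values of Crmp1 and Gal3st4 are fitted ones that rest in part on groups not well above background.

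Of the 769 genes whose yolk sac minus embryo difference was called to differ between genotypes, 11 are among the genes named here. The value in control minus that in Tie-2-Etv2 CD45+ cells was positive for Csf1r (2.47), Adgre1 (3.11), C1qa (3.00), Mertk (3.04), Lyve1 (2.92) and P2ry12 (2.65), all genes of macrophages that were not called between the tissues in control cells. It was also positive for Atp6v0d2 (3.17), Klra2 (6.43) and Sirpb1b (4.75), which were called higher in the yolk sac of controls, where the last 2 values are fitted ones that rest on embryo control signal not above background, and negative for Capn3 (−3.45) and Abcg1 (−1.83), which were called lower there. The adjusted p-values of these 11 lay between 0.00748 for Atp6v0d2 and 0.0474 for Lyve1.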

How the results depend on the processing

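Counts are yolk sac higher and then lower genes in control CD45+ cells, 152 and 269 as reported. They were 40 and 86 with normexp, 27 and 73 with the strict filter, 78 and 148 when dim probes were not filtered, 70 and 50 with the 8 control arrays and 0 and 0 with the 4 arrays alone. Without 1 array they ranged from 83 to 469 and from 160 to 422. Differences between gates, 322 genes, numbered 160 with the strict filter, 81 with the 8 control arrays and 155 to 500 without 1 array. The Tie-2-Etv2 count, 3084, was 2011 with no filter, 1991 with its 4 arrays alone and 664 to 2157 without 1 array. Differences between genotypes, 769, were 320 with no filter, 0 with the 8 CD45+ arrays alone and 88 to 1590 without 1 array. The strict filter tested 18294 to 19845 genes, depending on the comparison, and no filter 36048, and fits on fewer arrays had fewer degrees of freedom. Why the counts moved was not tested for any of these settings. Quantile scaling, scaling on detected probes, the mean of probes and a trended prior left all these counts within 1.5 times, and no direction of a called result reversed. Of the 421 genes 407 were also called with quantile scaling and 100 with the strict filter. Most of the 421 lost the call with normexp and with the 8 control arrays, where 96 kept it. Without 1 array the genes called were in large part other ones than the 421, so similar counts do not mean the same genes. Among called genes named here, 38 of 82 kept the call with normexp and 33 of 82 with the 8 control arrays. Of 82 called named genes, 32 were called without yolk sac replicate 1, 64 without yolk sac replicate 2, 51 without embryo replicate 1 and 50 without embryo replicate 2.

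Same-numbered yolk sac and embryo control CD45+ arrays did not deviate together (correlation −0.01), and with the replicate block 159 higher and 333 lower genes were called, 386 of the 421 among them. Same-numbered arrays of both gates correlated at 0.03 in yolk sac and 0.39 in embryo controls, 0.37 in yolk sac and 0.22 in embryo Tie-2-Etv2 animals. With the gates of a replicate number as a random replicate block, chosen after seeing the data (consensus correlation 0.364), 142 higher and 266 lower genes were called, 367 of the 421 among them, and 784 for the difference between gates. Levels near background limit what can be said of genes seen in 1 tissue.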
